A study of Mus musculus with 2 samples.

Results

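The paired myeloid receptors are families of cell surface proteins in which closely related genes encode either an inhibitory or an activating receptor. They were taken here as every gene on the array whose name in the array files begins with Cd300, Siglec, Lilr, Trem, Pilr, Pira or Sirp, together with Lair1, Cd33, Cd200, Cd200r1, Cd47, Pirb and Gp49a, and without Siglech and Sirpa. This gave 38 genes, measured by 69 probes, of 24816 named genes on the array. Gene expression had been measured in cells sorted from mouse Peyer's patches, which are lymphoid tissue in the wall of the small intestine, to learn how S100A4-positive cells differ from S100A4-negative cells. Both groups came from C57BL/6 mice of the genotype S100A4-GFP transgenic, in which a green fluorescent protein reports S100A4, a small calcium-binding protein. The S100A4-positive group was the sorted S100A4-positive fraction, and the S100A4-negative group was the S100A4-negative fraction of such mice. Both fractions were released by 60 min of digestion with dispase II, collagenase D and DNase I and sorted by flow cytometry, and each was measured on 1 Agilent 1-colour array. The age and number of the mice and any pooling are not given in the sources used here, the sort used no lineage marker that the labels name, and a reporter transgene need not follow S100A4 protein in every cell.

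An inhibitory receptor of these families has a long cytoplasmic tail with tyrosine motifs (ITIMs). When these are phosphorylated they recruit phosphatases such as SHP-1 (Ptpn6) and SHP-2 (Ptpn11), which dampen signals in the same cell. Its activating partner has a short tail and a charged residue in the membrane, by which it couples to the adaptor DAP12 (Tyrobp) or the Fc receptor gamma chain (Fcer1g), whose motifs recruit the kinase Syk. The members of a pair often lie side by side in the genome and share similar outer domains, and macrophages, dendritic cells and granulocytes carry many of them at once.

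S100a4 itself gave a signal of 119341 on the S100A4-positive array, against 1057 on the S100A4-negative array, a 175-fold difference once signals were taken relative to the 75th percentile of their array. That scale is used for every difference below, which is given as S100A4-positive minus S100A4-negative on the log2 scale, and on it equal deposited signals make a difference of 0.63. Each array held 59305 non-control spots, of which 52.3% on the S100A4-positive array and 53.3% on the S100A4-negative array were well above background by the scanner software's flag, and no spot was saturated. Since each group was measured once, differences have neither a replicate check nor a p-value. The errors are those the scanner software gives for single spots, typically 0.20 for a difference, and cover no variation among animals or preparations. Spike-in controls gave 3.62-fold more signal on the S100A4-positive array, so that scaling on them lowers every difference measured on both arrays by 2.49. Scaled in that way, 13 of the receptor and ligand genes detected were higher by 2-fold or more and 9 were lower by as much, in place of the 24 and 3 given next, while the median over all detected genes on that scale was -2.44. All directions below are thus relative to the 75th percentile of each array, and fewer cells of a type and less RNA per cell cannot be told apart in such sorted bulk samples.

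Most of these genes were higher in the S100A4-positive cells on the 75th-percentile scale. Of the 38 genes, 32 were well above background on at least 1 array. At the probe used for each gene, 27 of them were so on both arrays and 5 only on the S100A4-positive array. A gene seen on 1 array was set at a bound, its signal there over the higher of its own dim signal and the lowest signal well above background on the other array, and is given as "at least" that fold. At least 2-fold higher in S100A4-positive cells were 24 of these 32 genes (75%), against 21.5% of all 15248 genes detected, and 3 were at least 2-fold lower, against 17.2% of all genes. Of the 27 genes measured on both arrays, 19 were higher and 3 lower by 2-fold or more, against 17.7% and 16.6% of 12930 genes. The median difference of the 32 genes was 2.36 at bounds, against 0.01 over all genes. Among the 32, 13 were at least 10-fold higher, a size reached by 4.49% of all genes. These include Cd300c, Sirpb1a, Trem2 and Trem3, which were seen only on the S100A4-positive array and so could only be higher. Over probes rather than genes, 37 of 52 detected probes were at least 2-fold higher and 5 lower, against 20.9% and 14.8% of all detected probes. Of the 52 probes, 39 were well above background on both arrays. The other 13 were so only on the S100A4-positive array and could only be higher. The remaining 6 genes, Cd300lb, Cd300lh, Lilra5, Siglec1, Siglec15 and Treml1, were not well above background on either array.

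**Figure D1:**
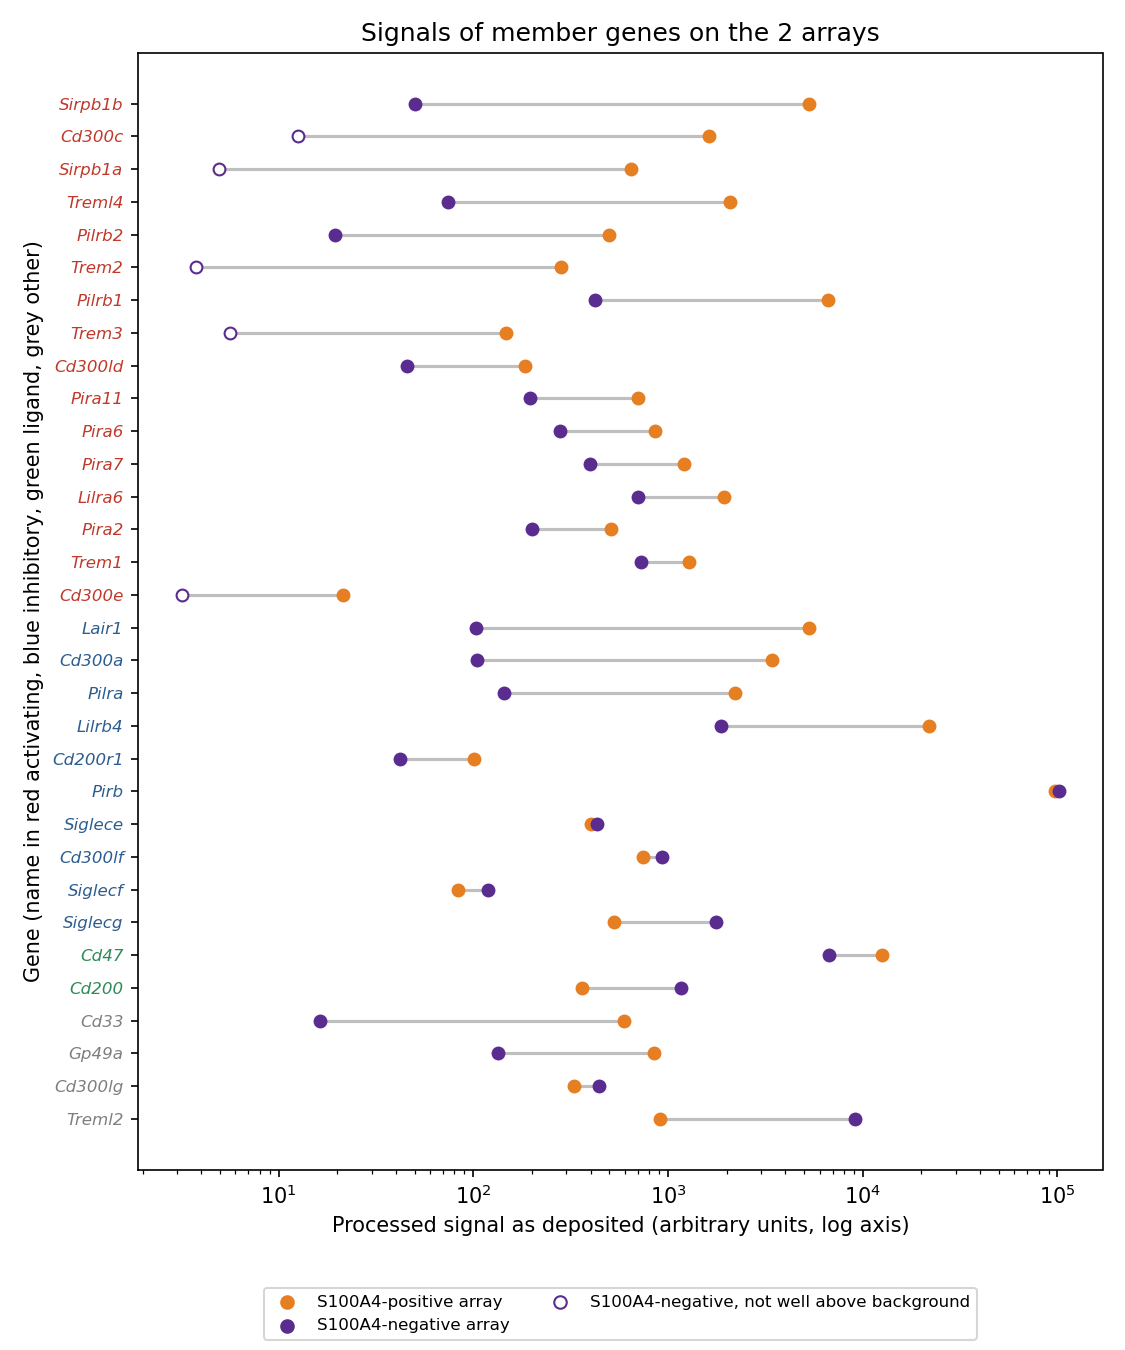
Deposited signals (log axis, arbitrary units) of the 32 detected genes on the S100A4-positive array (orange) and the S100A4-negative array (purple), 1 array each, at the probe used for the gene. Open points are signals not well above background. The orange points lie to the right for all 16 activating receptors, while the inhibitory receptors Pirb, Siglece, Cd300lf, Siglecf and Siglecg had the higher deposited signal on the S100A4-negative array.

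The genes sit in a few clusters, which were not part of the choice. In the positions the array files give, on mouse build mm9, the probes of 7 Cd300 genes lay on chromosome 11 between 114762469 and 114978431, and those of Cd300lg lay apart at 101910343 to 101916144. The Pira genes, Pirb, Lilra5, Lilra6 and Lair1 fell between 3663046 and 4234186 of chromosome 7, and the Siglecs other than Siglec1 and Siglec15 between 50614417 and 50906728 of that chromosome, Cd33 among them. Chromosome 17 held the Trem genes between 48385230 and 48506424, chromosome 5 the Pilr genes between 138263180 and 138312162, chromosome 3 both Sirpb1 genes between 15410117 and 15541313, and chromosome 10 Lilrb4 and Gp49a between 51205419 and 51216219. Of the 69 probes, each 60 bases long, 5 span more of the genome than their own length. Exons and untranslated regions of the probes were not analysed here.

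Several probes of these families are not specific by their sequence, and the sequences of those that bear on the results are given here, 5′ to 3′, with capitals for bases in a run of at least 20 that a probe named for another gene shares. The first is the brighter of the Pirb probes, of which 47 bases recur in parts in 19 probes named for 19 other genes. The second is the Pirb probe that carries the gene's RefSeq accession, with no such run. The third is the probe that stands for Trem1, whose shared part is a repeat of TGT units found in 4 other probes, and the fourth is the other Trem1 probe. The last pair, for Pira7 and Pira11, share 24 bases with each other, and Pira7 shares 41 bases with a probe for Gm14548. Positions are on mm9.
Pirb, chr7:3663046-3663105, minus strand: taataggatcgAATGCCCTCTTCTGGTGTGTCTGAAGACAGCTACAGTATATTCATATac
Pirb, chr7:3664148-3664207, minus strand: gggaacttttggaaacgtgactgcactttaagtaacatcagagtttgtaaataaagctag
Trem1, chr17:48385849-48385908, plus strand: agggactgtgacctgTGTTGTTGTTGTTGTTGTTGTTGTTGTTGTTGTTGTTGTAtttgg
Trem1, chr17:48385230-48385289, plus strand: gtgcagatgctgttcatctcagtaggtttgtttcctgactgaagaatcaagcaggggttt
Pira7, chr7:3789721-3789780, minus strand: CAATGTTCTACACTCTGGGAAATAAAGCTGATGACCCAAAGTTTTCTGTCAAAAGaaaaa
Pira11, chr7:3789757-3789816, minus strand: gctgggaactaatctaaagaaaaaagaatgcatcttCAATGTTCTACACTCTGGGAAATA

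At the probe used, all 16 activating receptors that were detected, of 20 on the array, were at least 2-fold higher in S100A4-positive cells. Their median difference was 3.24 at bounds. The 5 genes seen only on the S100A4-positive array are all in this class and could only be higher, and over the 11 measured on both arrays the median was 2.47. The count was 15 of 16 with normexp background correction, with quantile normalization and in the deposited value table, where the dim Cd300e (1.04 ± 1.47 at its bound) was under 2-fold, and 14 of 16 with no scaling, where Trem1 (0.82) was too. On the spike-in scale 8 of the 16 stayed at least 2-fold higher, and Trem1, at its probe with the TGT repeat, was at least 2-fold lower. Whether Cd300c belongs to the activating class in mouse is not settled, and it is counted in that class here. Without the Pira, Lilra6 and Gp49a genes, which have close relatives in the set, the median of the other activating receptors was 4.75.

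The SIRP-beta genes Sirpb1a and Sirpb1b encode DAP12-coupled relatives of the CD47 receptor SIRP-alpha that do not bind CD47. Sirpb1b had a signal of 5310 on the S100A4-positive array, against 50.4 on the S100A4-negative array, a difference of 7.35 ± 0.22. A second Sirpb1b probe read 747 in S100A4-positive cells and was not well above background in S100A4-negative cells, a difference of at least 6.17. At both probes Sirpb1b was thus far higher in S100A4-positive cells. In S100A4-negative cells it was dim but well above background at the brighter probe, and not well above background at the second. Sirpb1a was seen at one probe with a signal of 647 in S100A4-positive cells, against 4.94, not well above background, in S100A4-negative cells, at least 62.2-fold higher. At its other probe it had signals of 318 and 248 in S100A4-positive and S100A4-negative cells, a difference of 0.99 ± 0.21. The Sirpb1a probes therefore disagree, and on no other gene of the set did they lie so far apart. The sequences of the 4 SIRP-beta probes are printed because the genes are near copies of each other, and none holds a run of 20 bases that another-named probe shares. That compares them only with other probes of the array and cannot show that a probe reads 1 gene. In the array's annotation the Sirpb1a probe with the larger difference lists RefSeq transcripts of 3 genes, and the brighter Sirpb1b probe those of 2.
Sirpb1b, chr3:15495805-15495863, minus strand: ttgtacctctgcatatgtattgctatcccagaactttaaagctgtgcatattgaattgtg
Sirpb1b, chr3:15541254-15541313, minus strand: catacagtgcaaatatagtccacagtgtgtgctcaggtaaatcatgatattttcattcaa
Sirpb1a, difference of at least 5.96, chr3:15416909-15416968, minus strand: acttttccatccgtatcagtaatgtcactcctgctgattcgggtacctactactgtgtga
Sirpb1a, difference of 0.99, chr3:15410117-15410176, minus strand: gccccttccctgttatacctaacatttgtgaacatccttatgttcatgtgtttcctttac

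Among the TREM genes, DAP12-coupled receptors that include sensors of lipids and of dying cells, Treml4 differed most among those measured on both arrays. Its signal was 2091 in S100A4-positive cells, against 74.5 in S100A4-negative cells, a difference of 5.44 ± 0.22. Trem2, a receptor for lipids and apolipoproteins on macrophages and microglia, read 281 in S100A4-positive cells and 3.78, not well above background, in S100A4-negative cells, and was at least 27.0-fold higher. For Trem3, a mouse receptor that also signals through DAP12, the signals were 148 and 5.64, the second not well above background, in S100A4-positive and S100A4-negative cells, at least 14.2-fold higher. Trem2 and Trem3 were thus detected in the S100A4-positive cells alone. Trem1, which amplifies inflammatory responses of monocytes and neutrophils, depended on its probe. Its brighter probe, the one with the TGT repeat printed above, had signals of 1287 in S100A4-positive cells and 730 in S100A4-negative cells, a difference of 1.45 ± 0.20, and on the spike-in scale the direction was turned, at -1.04. The 4 other-named probes that share the repeat differed by 0.63 to 1.02. The other Trem1 probe, with no shared run, read 186 in S100A4-positive cells and 12.7, not well above background, in S100A4-negative cells. At that probe Trem1, like Trem2 and Trem3, was detected in S100A4-positive cells alone, with a difference of at least 4.16.

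Activating Pilr and Cd300 receptors were higher as well. Pilrb1, the DAP12-coupled partner of Pilra, had signals of 6612 in S100A4-positive cells and 421 in S100A4-negative cells, 24.4-fold higher, and its other probe gave 674 and 25.8, a difference of 5.34. Its near copy Pilrb2 gave 498 in S100A4-positive cells and 19.6 in S100A4-negative cells, a difference of 5.30 ± 0.32. In the array's annotation the brighter Pilrb1 probe lists RefSeq transcripts of 2 genes, so its signal need not come from Pilrb1 alone. Cd300c, a short-tailed CD300 receptor, read 1615 in S100A4-positive cells and 12.6, not well above background, in S100A4-negative cells, and was at least 155-fold higher. The next gene of that cluster to be measured on both arrays was Cd300ld, which couples to the Fc receptor gamma chain, and it was far closer between the fractions. Its signals were 185 in S100A4-positive cells and 45.8 in S100A4-negative cells, a difference of 2.64 ± 0.23. Cd300e, known in human from monocytes, was dim, with 21.4 in S100A4-positive cells and 3.19, not well above background, in S100A4-negative cells, which bounds its difference at 2.06-fold or more.

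The Pira genes, whose receptors bind MHC class I and couple to the Fc receptor gamma chain, were higher by smaller and similar amounts. Pira11 had signals of 700 in S100A4-positive cells and 196 in S100A4-negative cells, a difference of 2.47 ± 0.21. Pira6 had 860 in S100A4-positive cells and 279 in S100A4-negative cells, a difference of 2.26. Pira7 had 1202 in S100A4-positive cells and 396 in S100A4-negative cells, a difference of 2.23. At these probes all 3 were well above background in both fractions. Lilra6 gave 1933 in S100A4-positive cells and 703 in S100A4-negative cells, a difference of 2.09, and Pira2 gave 509 and 199, a difference of 1.99. These 5 genes thus spanned only 1.99 to 2.47, and their probes cannot be taken as separate measurements, since Pira7 and Pira11 share bases with each other and Pira7 also with Gm14548, which itself differed by 2.13. Second probes of Pira2 and Lilra6 gave at least 3.48 and 2.73. Another Pira6 probe read 21.0 in S100A4-positive cells and 3.51, not well above background, in S100A4-negative cells, a difference of at least 1.02. A further Pira6 probe was well above background on neither array. At the probes used, all 5 genes lay below 0 on the spike-in scale, with Pira11 at -0.02 and Pira2 at -0.50 as the extremes.

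The inhibitory receptors did not move as one class. Of 11 on the array, 10 were detected on both arrays, 5 of which were at least 2-fold higher in S100A4-positive cells, 1 was lower by as much and 4 lay within 2-fold, with a median difference of 1.23. Scaled on the spike-ins, 4 were higher and 5 lower by 2-fold or more, and the median was -1.26. The higher ones were Lair1, Cd300a, Pilra, Lilrb4 and Cd200r1.

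Lair1, an ITIM receptor for collagens, was the most different of them, with signals of 5290 in S100A4-positive cells and 103 in S100A4-negative cells, 79.7-fold higher (6.32 ± 0.21). Cd300a, which binds phosphatidylserine and phosphatidylethanolamine on dying cells, read 3406 in S100A4-positive cells and 105 in S100A4-negative cells, a difference of 5.65 ± 0.21, and at its second probe the difference was at least 6.29. Pilra, the ITIM partner of the Pilrb genes, had 2218 in S100A4-positive cells and 143 in S100A4-negative cells, a difference of 4.59 ± 0.21, while its second probe gave 3.16. Pilra and both Pilrb genes were thus higher at every detected probe, the smallest difference being 8.95-fold. Lilrb4, the ITIM receptor gp49B, had signals of 21867 in S100A4-positive cells and 1864 in S100A4-negative cells, 18.2-fold higher. Its neighbour Gp49a, now named Lilr4b, lacks the ITIMs and gave 851 and 133 in S100A4-positive and S100A4-negative cells, 9.92-fold higher, and the 2 genes are too alike in sequence to be sure that their probes are separate. Cd200r1, the inhibitory receptor for CD200, which signals through docking proteins in place of ITIMs, was dim, at 100 in S100A4-positive cells and 42.0 in S100A4-negative cells. Its difference was 1.89 ± 0.25 at that probe and 2.57 ± 0.33 at the other, and on the spike-in scale the first was turned, at -0.60.

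Pirb, the inhibitory partner of the Pira genes, depends on its probe. The brighter probe read 96892 in S100A4-positive cells and 101454 in S100A4-negative cells, a difference of 0.57 ± 0.20. The 19 probes of other names that share parts of its sequence were all well above background on both arrays, with median signals of 42385 in S100A4-positive cells and 48409 in S100A4-negative cells and a median difference of 0.45, from -0.10 to 1.49. Its value thus lay within the range of the probes of other names that share those bases. The RefSeq probe, with no shared run, gave 9957 in S100A4-positive cells and 2248 in S100A4-negative cells, a difference of 2.78 ± 0.20, which is close in size to those of the Pira genes. The dimmest Pirb probe, likewise with no shared run, read close to the background, at 19.9 in S100A4-positive cells and 15.1, not well above background, in S100A4-negative cells, a difference of at least 0.93. With the probes that share 20 bases with other names left out, 6 inhibitory receptors were at least 2-fold higher and their median was 2.33.

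None of the detected inhibitory Siglecs, which are sialic acid receptors, was at least 2-fold higher. Siglece, an ITIM Siglec of neutrophils and macrophages, had signals of 401 in S100A4-positive cells and 432 in S100A4-negative cells, a difference of 0.53. Siglecf, known from eosinophils, gave 83.0 and 118 in S100A4-positive and S100A4-negative cells, a difference of 0.12 ± 0.22, no larger than its error. Siglecg, an ITIM Siglec best known from B lymphocytes, was lower, with 526 in S100A4-positive cells and 1754 in S100A4-negative cells, a difference of -1.10 ± 0.20 and at its second probe of -1.53. Cd300lf, an ITIM receptor that binds ceramide, was also close between the fractions. It had 739 in S100A4-positive cells and 926 in S100A4-negative cells, a difference of 0.31 ± 0.20, and its second probe gave -0.51 ± 0.22, of the opposite sign.

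**Figure D2:**
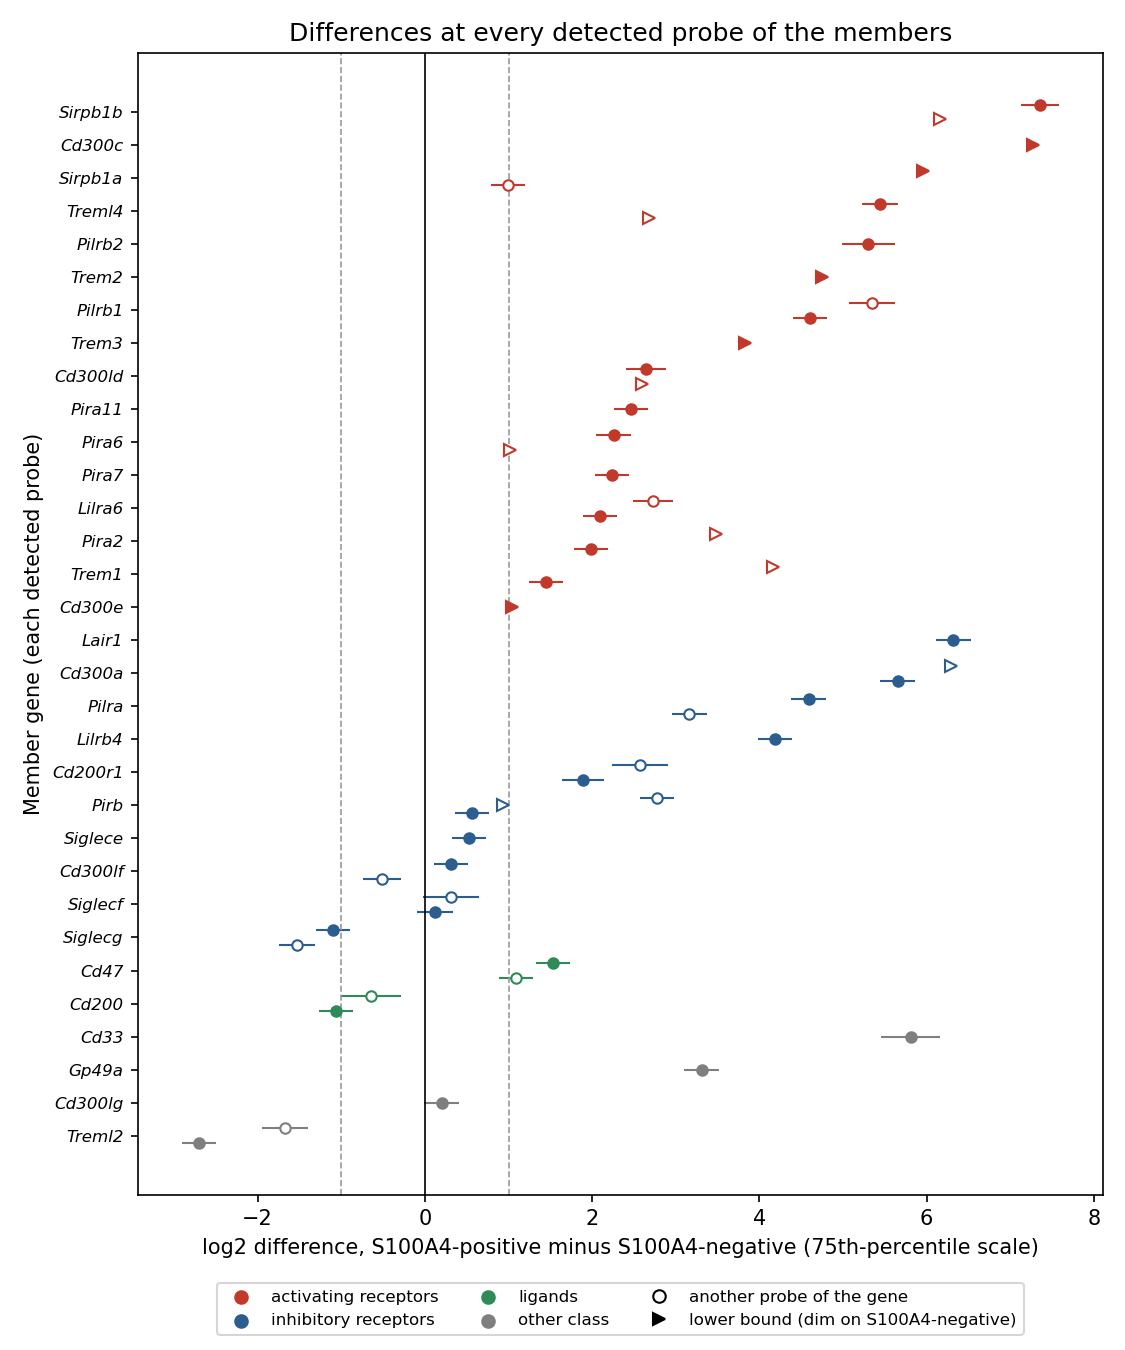
Log2 difference, S100A4-positive minus S100A4-negative, at every detected probe of the 32 genes, with the scanner error as bars. Filled symbols are the probe used for the gene, open symbols other probes, triangles lower bounds, and dashed lines 2-fold. All activating receptors lie at or above the 2-fold line at the probe used, on the 75th-percentile scale (8 of 16 do on the spike-in scale), while the probes of Sirpb1a, Trem1 and Pirb lie far apart.

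Of 19 genes with several detected probes, 9 had probes that differed by over 2-fold in their measured differences, the widest being Sirpb1a, Trem1, Pira2 and Pirb. Cd300lf was the one gene whose detected probes had opposite signs.

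Both ligands in the set are broadly expressed surface proteins. Cd47, which gives phagocytes a signal against engulfment through SIRP-alpha, read 12540 in S100A4-positive cells and 6743 in S100A4-negative cells, a difference of 1.53 ± 0.20, with 1.09 at its other probe. Its direction was turned on the spike-in scale, at -0.96. Cd200, the ligand of Cd200r1, was lower, with 360 in S100A4-positive cells and 1165 in S100A4-negative cells, a difference of -1.06 ± 0.20, and its other detected probe gave -0.65 ± 0.36. The receptor and the ligand of this pair thus differed in opposite directions on the 75th-percentile scale. On the spike-in scale both lay below 0 at the probe used. The other Cd200r1 probe, at 2.57, exceeded the 2.49 which that scale takes off.

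The members outside both classes included the gene of the set with the lowest difference. Treml2, a TREM-like receptor of B lymphocytes and some myeloid cells, had signals of 907 in S100A4-positive cells and 9147 in S100A4-negative cells, a difference of -2.70 ± 0.20, with -1.67 at its other probe. It lies between Treml4 and Trem2 in the cluster on chromosome 17, both of which were higher. Cd33, a Siglec whose mouse form lacks the usual inhibitory tail, gave 592 in S100A4-positive cells and 16.4 in S100A4-negative cells, 56.2-fold higher (5.81 ± 0.35), the second signal being just above the lowest that counted as well above background, 16.1. Cd300lg, a CD300 relative of endothelium, lay apart from the Cd300 cluster in position, and in value it was close to Cd300lf of that cluster. Its signals were 328 in S100A4-positive cells and 443 in S100A4-negative cells, a difference of 0.20 ± 0.20, no larger than its error. Within the families, 7 of 8 detected Lilr and Pir genes (Gp49a included), 4 of 6 Cd300 genes, 4 of 5 Trem genes, 3 of 3 Pilr genes and 2 of 2 Sirpb1 genes were at least 2-fold higher, and of the Siglecs with Cd33 it was 1 of 4, on the 75th-percentile scale. At the probes used, all Pira genes and Lilra6 lay below 0 on the spike-in scale, while both Sirpb1 genes and all 3 Pilr genes stayed above it. Other probes read otherwise. That scale takes 2.49 from a difference, more than the 0.99 of the other Sirpb1a probe. It takes less than the 2.73 of the second Lilra6 probe and the bound of 3.48 at the second Pira2 probe.

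**Figure D3:**
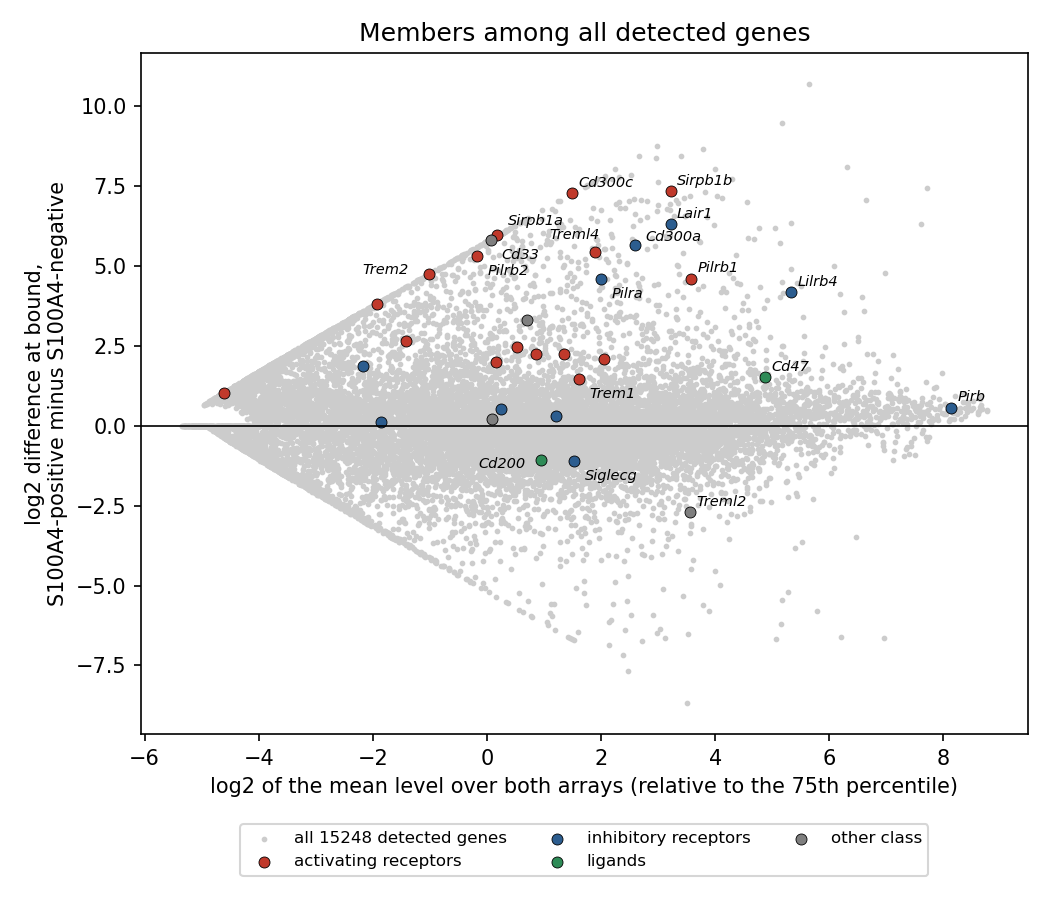
Log2 difference, S100A4-positive minus S100A4-negative, against the log2 mean level of both arrays, relative to the 75th percentile, for all 15248 detected genes (grey) and the 32 receptor and ligand genes (coloured by class). Straight edges are genes at a bound. The 24 coloured points at or above 1 span the range of levels, and 3, Treml2, Siglecg and Cd200, lie at or below -1.

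Both adaptors through which most of the activating receptors signal were higher too. Tyrobp, which encodes DAP12, had signals of 69467 in S100A4-positive cells and 3895 in S100A4-negative cells, 27.7-fold higher (4.79 ± 0.20). Fcer1g gave 39873 in S100A4-positive cells and 3510 in S100A4-negative cells, 17.6-fold higher. Both adaptors stayed above 0 on the spike-in scale, which takes 2.49 from each. Of 16 adaptors and kinases, all detected, 6 were higher and 2 lower by 2-fold or more, and their median was 0.23. Fgr, a Src-family kinase of myeloid cells, differed by 1.41, Card9, a downstream adaptor, by at least 1.72, Vav3 by 1.25 and Hcst, which encodes DAP10, by 1.01. Syk, which B lymphocytes also use, differed by -0.56 and lay within 2-fold. The B cell kinase Btk and its adaptor Blnk were lower, at -2.79 and -1.49.

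The phosphatases and docking proteins of the inhibitory arm were measured on both arrays for all 10 genes of the list. None was at least 2-fold higher, 4 were at least 2-fold lower and the median was -0.73. Ptpn6, which encodes SHP-1, read 4132 in S100A4-positive cells and 13401 in S100A4-negative cells, a difference of -1.06. Ptpn11 (SHP-2) and Inpp5d (SHIP-1) lay within 2-fold, at -0.52 and -0.94. Dok3, a docking protein, was the lowest at -3.54, followed by Csk, which restrains Src-family kinases, at -1.70 and Rasa1, the Ras GTPase-activating protein, at -1.65. The phosphatases are shared with lymphocytes, and B and T cell markers were lower in the same direction, as given below. The part of lymphocytes in the values of this list was not tested. Every gene of this list lay below 0 on the spike-in scale.

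Genes reported as ligands of the receptors, or as proteases that shed them, went both ways. Of 18 on the list 16 were detected, 7 of them higher and 3 lower by 2-fold or more, and the median was 0.15. Thbs1, a matrix protein that binds CD47, had 863 in S100A4-positive cells and 83.3 in S100A4-negative cells, a difference of 4.01. Col17a1, a membrane collagen of the kind that Lair1 binds, differed by at least 5.25, and Pianp, a Pilra ligand, by at least 3.77. Cd99, another Pilr ligand, differed by 1.17, and the Trem2 ligands Clu and Apoe by 2.06 and 1.01. Spn, which encodes the sialoglycoprotein CD43, differed by 1.68. Of these, Col17a1, Thbs1 and Pianp alone lay above 0 on the spike-in scale. Cd24a, read by Siglecg, was lower, a difference of -2.36, with 2585 in S100A4-positive cells and 20645 in S100A4-negative cells, as Siglecg itself was. Apoa1 and Col1a1 were the other lower ones, at -1.46 and at most -1.16.

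**Figure D4:**
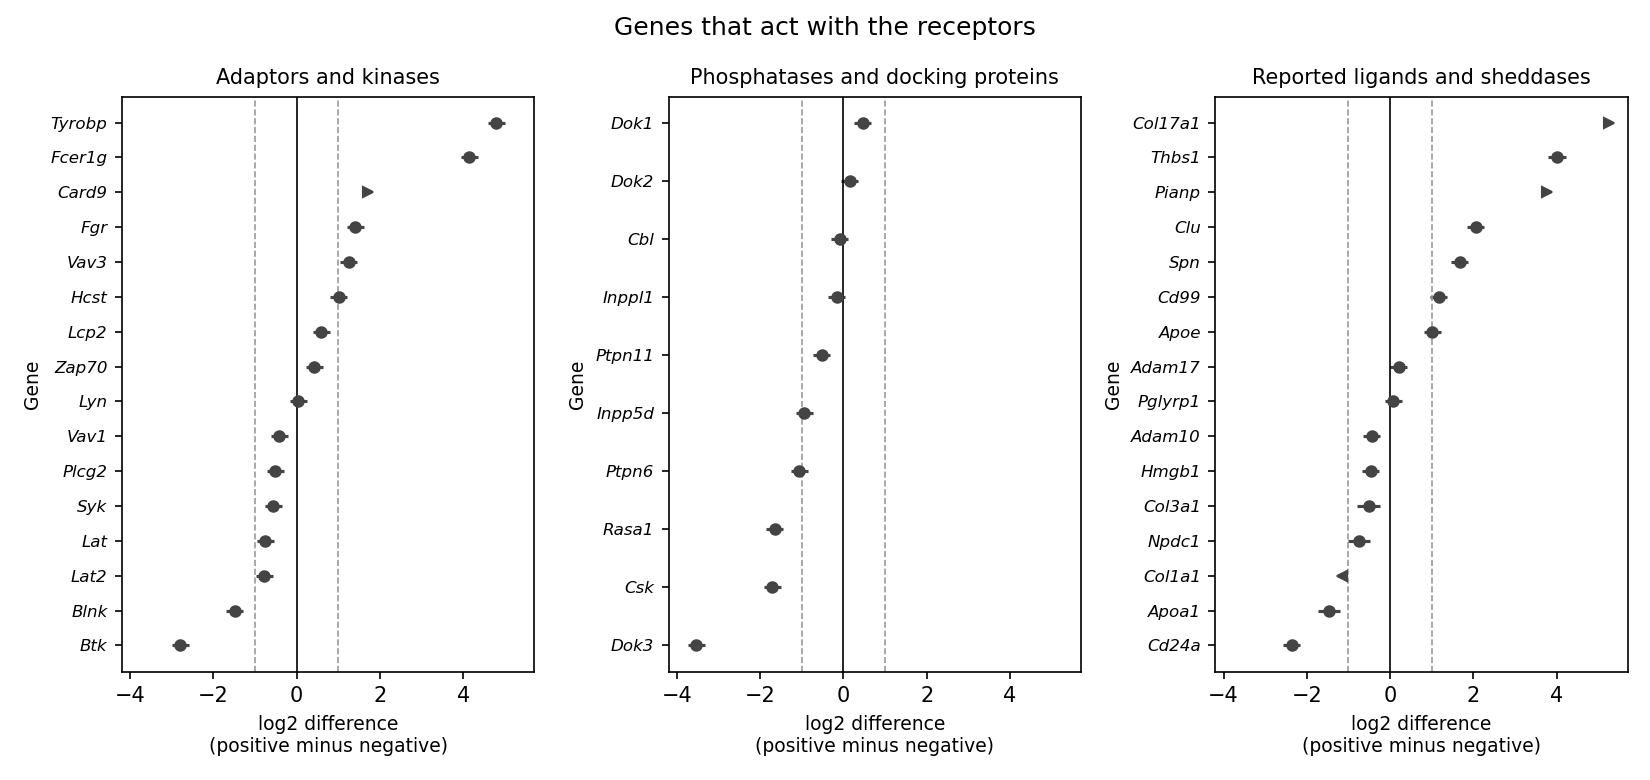
Log2 differences, S100A4-positive minus S100A4-negative, of the adaptors and kinases, the phosphatases and docking proteins, and the reported ligands and sheddases that were detected, with the scanner error as bars and triangles for bounds. Dashed lines mark 2-fold. Tyrobp and Fcer1g lie above 4 while no phosphatase or docking protein passes 1, on the 75th-percentile scale.

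Markers of the cell types that could carry these receptors differed with them. A marker seen on 1 array could only be higher on that array. On the S100A4-positive array alone these were 3 macrophage and monocyte, 4 classical dendritic cell, 2 neutrophil, 1 platelet and 3 endothelial markers. On the S100A4-negative array alone they were 1 neutrophil, 3 eosinophil and mast cell, 1 B cell and 1 epithelial marker. All 12 macrophage and monocyte markers were at least 2-fold higher, with a summed level, in units of each array's 75th percentile, of 580 in S100A4-positive cells and 9.10 in S100A4-negative cells. All 7 detected of 8 classical dendritic cell markers were at least 2-fold higher, with summed levels of 99.8 in S100A4-positive cells and 6.88 in S100A4-negative cells, and Xcr1 was not detected. Of 6 plasmacytoid dendritic cell markers 3 were higher and 1 lower (277 and 93.3 summed in S100A4-positive and S100A4-negative cells). Granulocytes did not follow that pattern. Of 10 neutrophil markers 9 were detected, 3 at least 2-fold higher and 3 lower, with sums of 125 in S100A4-positive cells and 84.0 in S100A4-negative cells, and Ngp was not detected. Csf3r made up most of both sums, and without it they were 2.11 in S100A4-positive cells and 3.20 in S100A4-negative cells. Of 8 eosinophil and mast cell markers 6 were detected, 2 higher and 4 lower, with sums of 14.4 in S100A4-positive cells and 7.61 in S100A4-negative cells, and the defining Epx and Fcer1a were not detected. Kit made up most of the first of these sums, and without it they were 1.03 in S100A4-positive cells and 6.74 in S100A4-negative cells. Of 5 platelet markers Pf4 and Ppbp were detected and Itga2b, Gp9 and Gp1ba were not, and neither was the platelet receptor gene Treml1. The platelet sums were 4.94 in S100A4-positive cells and 0.0687 in S100A4-negative cells. Pf4 made up most of both, and without it they were 0.0708 in S100A4-positive cells and 0.00722 in S100A4-negative cells. Ppbp differed by at least 0.97 at its bound. Lymphocyte markers ran with the 3 lower members. All 8 B cell markers were at least 2-fold lower, with sums of 20.6 in S100A4-positive cells and 468 in S100A4-negative cells, as were all 7 T cell markers found on the array (15.0 and 150 in S100A4-positive and S100A4-negative cells). Endothelial markers, beside which Cd300lg is set, had sums of 3.03 in S100A4-positive cells and 0.899 in S100A4-negative cells. Of 5 detected 3 were at least 2-fold higher, each of them seen only on the S100A4-positive array. Of 6 intestinal epithelial markers 5 were lower (1.77 and 27.99 in S100A4-positive and S100A4-negative cells). The part of these cell types in the receptor differences was not tested.

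Because many of the genes were higher together, their promoters were read for a shared short motif, over windows from 250 bases before to 50 after the gene start in RefSeq's annotation of build GRCm38.p6. The letters searched were GAGGAAG, the core bound by the myeloid transcription factor PU.1, on both strands. Of 28 members with a window, 15 (53.6%) held it in at least 1 window, against 15.4% of 27025 genes. Of the members at least 2-fold higher 8 of 18 held it (44.4%), and of the others 7 of 10 (70.0%). A second motif, TTNNGNAAT for the C/EBP factors, was in 8 of 28 members (28.6%), against 13.1% of all genes. The members' windows are in part copies of each other, since 10 of the 28 share a run of at least 20 bases with another member's window. Counting such windows as 1 left 22, of which 12 held the PU.1 letters and 6 the C/EBP letters, and the windows of all genes were not grouped in this way. A match of letters is a description and not a bound site. A few windows are printed as examples of higher genes with the PU.1 letters close to the start, here on the opposite strand and so read as CTTCCTC in capitals, with the first base of the match 40 bases before the start of Cd300a, 27 before that of Lair1 and 41 before that of Trem2. Members that were not 2-fold higher held the letters as close. Counted in bases from the start, these matches lay at -37 in Siglece, at -44 and 0 in Cd300lf, and at 22 in Cd200, which was lower. A link between the letters and the differences was not tested. Positions are on GRCm38.p6 and differ from the mm9 positions above.
Cd300a promoter, chr11:114889791-114890090, plus strand: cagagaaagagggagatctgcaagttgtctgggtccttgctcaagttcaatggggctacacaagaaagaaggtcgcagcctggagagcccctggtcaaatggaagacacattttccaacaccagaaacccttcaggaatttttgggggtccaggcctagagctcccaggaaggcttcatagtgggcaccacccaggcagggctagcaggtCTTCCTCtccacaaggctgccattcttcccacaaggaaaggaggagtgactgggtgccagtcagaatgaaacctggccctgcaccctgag
Lair1 promoter, chr7:4063155-4063454, minus strand: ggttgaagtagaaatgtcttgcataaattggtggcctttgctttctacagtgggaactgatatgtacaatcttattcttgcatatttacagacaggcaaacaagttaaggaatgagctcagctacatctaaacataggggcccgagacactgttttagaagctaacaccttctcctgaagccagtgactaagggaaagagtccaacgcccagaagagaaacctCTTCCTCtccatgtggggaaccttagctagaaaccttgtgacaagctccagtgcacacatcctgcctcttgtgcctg
Trem2 promoter, chr17:48346151-48346450, plus strand: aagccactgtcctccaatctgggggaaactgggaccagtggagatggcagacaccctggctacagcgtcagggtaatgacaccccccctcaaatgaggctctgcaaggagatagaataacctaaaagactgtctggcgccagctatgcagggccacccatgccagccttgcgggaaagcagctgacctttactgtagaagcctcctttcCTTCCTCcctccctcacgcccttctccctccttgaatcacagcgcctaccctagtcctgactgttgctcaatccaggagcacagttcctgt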

How the data were processed

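Cy3-labelled cRNA was made from total RNA with an Agilent kit for low input, per the labels' protocols. Each group was hybridised to 1 of 2 arrays (Agilent design 74809). Per the file headers, the authors extracted both with Agilent Feature Extraction 10.7.1.1 from 1 scan of 1 slide, while version 9.5.1.1 stands in the submitters' processing notes. The deposited intensities are background-subtracted, spatially detrended spot signals with an error estimate, not normalized between arrays, and the deposited flag columns are another kind of value, taken as given. The deposited value table, an alternative, is on a linear intensity scale, not centred, with a median of 19.6 in both columns. Its making is not described in the sources used here.

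Control spots and outlier spots (80 on the S100A4-positive and 138 on the S100A4-negative array) were dropped. Signals were log2-transformed and centred on each array's 75th percentile (a signal of 287.3 on the S100A4-positive and 445.9 on the S100A4-negative array), and spots of a probe were averaged. A gene took its probe of highest mean signal among those well above background on at least 1 array. The lowest signal well above background was 15.7 on the S100A4-positive and 16.1 on the S100A4-negative array, and the median ratio of raw signal to local background over detected spots was 5.35 on the S100A4-positive and 6.80 on the S100A4-negative array. Genes detected on neither array (9568) were left out. Members kept the name in the array files, and 34122 probes were named through RefSeq accessions.

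No test was possible with 1 array per group, so counts past 2-fold and medians were used, beside the same over all genes. Every member was named. Of the other lists a part of the genes was named, and cell types were given mainly as counts and sums. An item of the lists is not reported here and was left out of their counts. The members and lists were chosen with earlier results of these data known. Alternatives changed the background correction, scaling, filter, probe choice and source of values. Python 3.11.15, numpy 2.4.6, pandas 2.3.3, matplotlib 3.10.9, and limma 3.58.1 in R 4.3.3 were used, and the steps were tested on simulated data.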

Additional observations from a re-analysis of the deposited data

How the results depend on the processing

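No paired analysis was possible because each group has 1 array. Scaling on the spike-in controls changed the most. It gave 13 genes at least 2-fold higher and 9 lower, in place of 24 and 3, with medians of -0.012 for all detected members, -1.26 for inhibitory and 0.74 for activating receptors, in place of 2.36, 1.23 and 3.24, while the median of all genes was -2.44 in place of 0.01. At the probes used it turned the sign of Trem1 (-1.04, TGT-repeat probe), Cd47 (-0.96), Cd200r1 (-0.60), Pira2 (-0.50), Lilra6 (-0.40), Pira7 (-0.26), Pira6 (-0.24) and Pira11 (-0.024). Which scale is closer to the amount per cell was not tested, and no other alternative run turned the sign of a gene at least 2-fold different. Under the remaining alternatives that kept 32 genes, 21 to 24 were at least 2-fold higher and 2 to 3 lower, and the counts higher were 27 of 38 with no filter on dim probes, 24 of 31 with either selection of probes named below, 19 of 28 with probes well above background on both arrays and 18 of 26 without the Pira, Lilra6 and Gp49a genes. The medians for all members, inhibitory and activating receptors were 1.95, 0.77 and 2.06 with normexp background correction at an offset of 50, and 1.73, 0.59 and 2.60 with no scaling. The activating median was 2.99 with quantile normalization, 3.02 in the deposited value table, 3.99 with measured differences in place of bounds and 2.36 over genes with a probe well above background on both arrays. With no filter on dim probes the inhibitory median was 0.57 and the activating 2.56, and with probes of a gene summarised by their median, values were 2.68 for all members and 1.58 for inhibitory receptors. Further alternatives were chosen after seeing the data. With probes of a RefSeq mRNA accession alone the inhibitory median was 2.33. Without probes sharing 20 bases with other names the medians were 2.78, 2.33 and 4.16 for all members, inhibitory and activating receptors, and without the Pira, Lilra6 and Gp49a genes 3.24 for all members and 4.75 for activating receptors. Signals near the background limit Cd300e, Cd200r1, Trem3 and the lower bounds, and 1 array per group limits all values.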

Other observations

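Inhibitory and activating receptors related to these families, but outside the name rule, went both ways. Of 11 on a list of such receptors 8 were detected, 3 at least 2-fold higher in S100A4-positive cells and 2 lower. Klra17, a Ly49-family receptor, had signals of 4451 in S100A4-positive cells and 20.6 in S100A4-negative cells, a difference of 8.39 ± 0.34. Fcgr3, the activating low-affinity IgG receptor that couples to Fcer1g, differed by 4.46, with 3464 in S100A4-positive cells and 243.5 in S100A4-negative cells, while its inhibitory counterpart Fcgr2b differed by -0.42 and lay within 2-fold. Clec12a, an inhibitory lectin receptor of myeloid cells, differed by 3.43. The CD200 receptor relatives Cd200r2 and Cd200r4 were lower, at -1.91 and -1.59, opposite to Cd200r1 at 1.89. Klra17, Fcgr3 and Clec12a stayed above 0 on the spike-in scale and Cd200r1, at the probe used, did not.

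Cd300c2, an activating member of the Cd300 cluster, carries only an accession as its name in the array files and so fell outside the rule. Named through that accession, it had signals of 6320 in S100A4-positive cells and 104 in S100A4-negative cells, 94.3-fold higher (6.56 ± 0.22). Cd300ld4, listed under a predicted gene name, was not well above background on either array.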
